A study of Notophthalmus viridescens with 12 samples.

Results

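Transcripts were followed that were abundant in the intact dorsal iris, low at 6 h post-lentectomy (hpl) and 1 day post-lentectomy (dpl), and abundant again at 4 dpl. They were chosen from the measured values themselves, and 10 of the 856451 assembled transcripts in the table met the rule. Values were transformed as log2(value + 1), and the 3 libraries of a time point formed a group. A transcript was kept when its untransformed mean was 50 or more in intact iris and at 4 dpl, when the mean log2 values of intact and 4 dpl lay within 1.5 of each other, and when those of 6 hpl and 1 dpl did so too. In addition, the gap had to be 1.5 or more. The gap is the lowest log2 value among the 6 intact and 4 dpl libraries minus the highest among the 6 libraries of 6 hpl and 1 dpl. Because all 12 libraries entered this rule, the pattern itself is a description and was not tested. The transcripts are called members 1 to 10, in the order of their gap.

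Tissue came from adult, wild-caught eastern newts (Notophthalmus viridescens) of no stated genotype. Intact eyes had no lentectomy, the surgical removal of the lens, and the other 3 groups were collected at 6 hpl, 1 dpl and 4 dpl. Each of the 12 libraries pooled the dorsal irises of both eyes of 3 or 4 animals, so that an animal's own level was not resolved. The pool is the replicate, and 3 such pools limit the precision of every mean.

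The newt regrows its lens from the dorsal iris. Pigment epithelial cells there lose their pigment, re-enter the cell cycle and form a lens vesicle, whereas the ventral iris does not normally form a lens vesicle. The early days after lens removal are a phase of wound response in which immune cells enter the eye. The iris also holds stroma, blood vessels, nerve and muscle, and a bulk library mixes the RNA of all of them. Fewer cells of a type and less RNA per cell therefore cannot be told apart in any value given here. No ID in the table was paired with a gene name, so that 0 of the 10 members could be named as genes, and neither a function nor a cell type is given for them. Markers of the iris could not be looked up for the same reason. The libraries were made from total RNA, with a step that depleted overrepresented transcripts, so a member need not be an mRNA. How that step affected the level of abundant transcripts was not tested. An assembled transcript can be a whole RNA, an isoform or a fragment, so 10 transcripts need not be 10 genes.

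Values are a normalised abundance per transcript. The sum of all values differed between libraries, with 27737613 as the lowest (1 dpl replicate 2) and 40770545 as the highest (4 dpl replicate 3), while the median transcript lay between 7.94 and 8.54. The number of reads behind a value is unknown, so no counting interval can be given. The members made up between 0.0426% and 0.101% of the summed abundance in the intact and 4 dpl libraries, and between 0.000911% and 0.00570% at 6 hpl and 1 dpl. At each early time point, the median of the members was highest in 1 library. In 6 hpl replicate 1 the median of the members was 51.9, against 11.5 and 14.2 in the other 2 libraries of that time point. In 1 dpl replicate 2 it was 39.7, against 17.1 and 14.1. On the log2 scale the 1 dpl libraries were graded. Their median deviations from the group mean were -1.19, 1.02 and 0.04 in replicates 1, 2 and 3. Where leaving out a library moved a member's level relative to intact iris by over 1.5 times, the value without it is given below, or the range over the members.

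The pattern was rare. A mean of 50 or more in both intact iris and 4 dpl was found for 48049 transcripts, and in 272 of these (0.566%) all 6 high values lay above all 6 early values. The gap was 1.5 or more in 14 (0.0291%), and 10 also met the limits on the group means. Over the 48049 transcripts, the median difference between the early libraries and the intact and 4 dpl libraries was -0.02 log2 units, and 54.0% were lower early. The members had a median difference of -4.33, from -7.23 to -4.01. Their gaps ran from 1.58 to 2.83 with a median of 1.74, so that the lowest high library exceeded the highest early library by 3.05 to 7.14 times. When the groups were exchanged, the same rule was met by 35 transcripts that were high at 6 hpl and 1 dpl and low in intact iris and at 4 dpl. It was met by 102 that were high in intact iris alone, and by 270 that were high at 4 dpl alone. With 1 high group, the mean of 50 is needed in that group only and no distance between high groups applies. The counts of 102 and 270 are therefore not like for like with the 10.

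The level of the members spanned a wide range. Mean abundance in intact iris ran from 121 in member 9 to 13024 in member 1, with a median of 457. At 6 hpl the means lay between 4.99 and 438, and at 1 dpl between 1.74 and 447. At 4 dpl they lay between 54.3 and 12961, with a median of 747. Expressed against intact iris, the mean was between 0.886% and 12.3% at 6 hpl, between 1.44% and 12.2% at 1 dpl and between 45.1% and 247% at 4 dpl. The level at 6 hpl leaned on replicate 1. Without it, the means at 6 hpl ran from 2.06 to 166 and from 1.28% to 6.52% of intact, with a median of 2.65% in place of 7.32%, and 9 members moved by over 1.5 times (member 1 did not). Without 1 dpl replicate 2, 5 members moved by over 1.5 times (members 3, 5, 6, 7 and 10), and the 1 dpl means ran from 1.28% to 7.24% of intact. In terms of position within a library, the median member stood at the 98.6th to 99.4th percentile of all transcripts in the intact and 4 dpl libraries. At 6 hpl and 1 dpl it stood between the 61.9th and the 91.6th percentile.

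**Figure D1:**
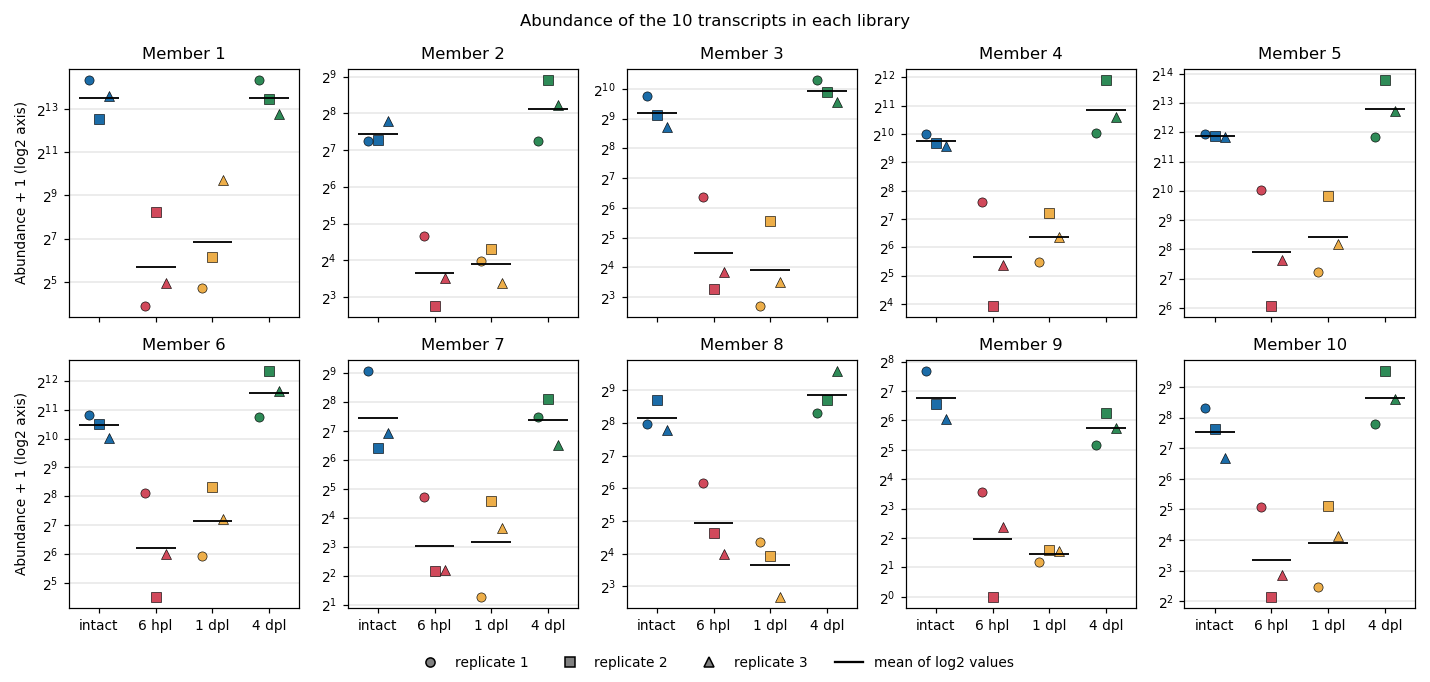
Abundance plus 1 (log2 axis) of the 10 members in each library, with 1 panel for each member, symbols for replicates 1, 2 and 3 and a line at the mean of the log2 values of each group. In each panel the intact and 4 dpl libraries lie above those of 6 hpl and 1 dpl, and in 9 of 10 panels replicate 1 is the highest library of 6 hpl.

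Member 1, transcript 1_2965039, was the most abundant and had the deepest fall on the log2 scale, while by the ratio of means member 9 fell further at 1 dpl (69.2 times). Replicates 1, 2 and 3 had 20793, 5945 and 12336 before lentectomy, then 13.9, 303 and 29.7 by 6 hpl, 25.3, 69.8 and 833 by 1 dpl, and finally 20806, 11093 and 6985 by 4 dpl. The early libraries disagreed widely with each other, and the highest of them, 1 dpl replicate 3, still lay 7.14 times under the lowest intact library. The intact mean of 13024 ± 7448 (SD, n = 3) compares with 115 ± 162 by 6 hpl, 309 ± 454 by 1 dpl and 12961 ± 7098 by 4 dpl. The intact mean was thus 113 times that at 6 hpl and 42.1 times that at 1 dpl, and the mean at 4 dpl was 99.5% of the intact mean. Both ratios rested on 1 early library each, being 598 without 6 hpl replicate 2 and 274 without 1 dpl replicate 3. Among all transcripts of a library, this transcript ranked 81st, 343rd and 175th in intact replicates 1, 2 and 3. Its ranks were 247526, 12556 and 108695 at 6 hpl, and 124344, 44350 and 5187 at 1 dpl. The early ranks thus differed widely between libraries.

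Member 9, transcript 1_7590129, was the other transcript named for its fall to 6 hpl, and the least abundant. Replicates 1, 2 and 3 had 204, 92.5 and 64.7 before lentectomy, then 10.8, 0 and 4.12 by 6 hpl, 1.26, 1.99 and 1.97 by 1 dpl, and finally 34.9, 75.1 and 52.9 by 4 dpl. The value of 0 in 6 hpl replicate 2 was the only one among the members, and it may be a failed estimate. The margin behind its naming was narrow, with a log2 difference to intact of -4.78 against -4.71 in member 3. Without 6 hpl replicate 2 it was -3.79, against -4.11 in member 3 and -3.99 in member 7. This member came back least, with a mean at 4 dpl of 54.3 ± 20.1 (SD, n = 3) against 121 ± 73.9 in intact iris, although the 2 groups overlapped. Without intact replicate 1 the means at 6 hpl, 1 dpl and 4 dpl were 6.35%, 2.22% and 69.1% of intact, in place of 4.14%, 1.44% and 45.1%. Its mean of 54.3 was also the closest to the minimum of 50.

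Member 3, transcript 1_3695888, was named for its rise from 1 dpl to 4 dpl. Replicates 1, 2 and 3 had 878, 556 and 417 before lentectomy, then 80.8, 8.70 and 13.3 by 6 hpl, 5.52, 45.8 and 10.3 by 1 dpl, and finally 1266, 958 and 754 by 4 dpl. The mean at 4 dpl, 993 ± 258 (SD, n = 3), was 48.3 times that at 1 dpl (126 times without 1 dpl replicate 2) and 1.61 times that in intact iris, 617 ± 237. A single library was high in each early group, namely 6 hpl replicate 1 and 1 dpl replicate 2.

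Member 8, transcript 4_29052254, was the other transcript named for its rise. Replicates 1, 2 and 3 had 252, 419 and 218 before lentectomy, then 70.9, 23.6 and 15.1 by 6 hpl, 19.3, 14.3 and 5.42 by 1 dpl, and finally 315, 412 and 774 by 4 dpl. In contrast to most members it was lower at 1 dpl than at 6 hpl, with means of 13.0 ± 7.04 (SD, n = 3) and 36.5 ± 30.1, but 1 value of 1 dpl lay within the range of 6 hpl. Without 6 hpl replicate 1 the 6 hpl mean was 19.3. The mean at 4 dpl, 500 ± 242, was 38.5 times that at 1 dpl.

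Members 4, 5, 6 and 10 shared their profile closely, as their values in replicates 1, 2 and 3 show. Member 4 had 1028, 825 and 765 before lentectomy, then 195, 14.3 and 41.0 by 6 hpl, 44.2, 148 and 82.1 by 1 dpl, and finally 1056, 3855 and 1555 by 4 dpl. Member 5 had 3924, 3759 and 3647 before lentectomy, then 1051, 66.3 and 198 by 6 hpl, 151, 904 and 287 by 1 dpl, and finally 3711, 14233 and 6818 by 4 dpl. In both, replicate 1 was highest and replicate 2 lowest at 6 hpl, while replicate 2 was highest at 1 dpl and at 4 dpl. Member 6 had 1808, 1471 and 1039 before lentectomy, then 273, 21.9 and 62.5 by 6 hpl, 59.4, 322 and 147 by 1 dpl, and finally 1703, 5216 and 3204 by 4 dpl. Member 10 had 317, 195 and 103 before lentectomy, then 32.9, 3.43 and 6.25 by 6 hpl, 4.54, 33.6 and 16.7 by 1 dpl, and finally 222, 737 and 386 by 4 dpl. The order of the libraries within each early group and within 4 dpl was the same in these 4 members. Member 9 had the same order in each of these groups too, and members 3 and 7 in the early groups. For member 9 the early order rested on low values. It had 1.99 and 1.97 in 1 dpl replicates 2 and 3, and 0 in 6 hpl replicate 2.

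The ratio of member 6 to member 4 stayed between 1.34 and 2.18 over the 12 libraries, although each of them varied by more than that within a group. The ratio of member 5 to member 4 stayed between 3.41 and 6.13, and that of member 10 to member 6 between 0.0765 and 0.175. Whether these are pieces or isoforms of 1 gene, or share reads, cannot be read from the IDs, and their first digits were 8, 8, 5 and 4. Their mean at 4 dpl was 2.47, 2.19, 2.34 and 2.19 times the intact mean in the order of members 4, 5, 6 and 10. These ratios leaned on 4 dpl replicate 2, without which the 4 dpl means were 150%, 139%, 170% and 148% of intact, and member 8 was then the highest of the 10, at 183%. In member 4 the 3 values at 4 dpl lay above the 3 intact values, whereas in members 5, 6 and 10 the groups overlapped.

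Member 2 had 152, 153 and 221 before lentectomy, then 24.4, 5.79 and 10.4 by 6 hpl, 14.8, 18.6 and 9.46 by 1 dpl, and finally 150, 481 and 298 by 4 dpl. Its values of 1 dpl lay within the range of those of 6 hpl. Member 7 had 537, 83.1 and 119 before lentectomy, then 25.4, 3.49 and 3.62 by 6 hpl, 1.41, 23.0 and 11.6 by 1 dpl, and finally 177, 277 and 90.5 by 4 dpl. Here intact replicate 1 decided the intact mean of 246 ± 252 (SD, n = 3), and the mean at 4 dpl, 181 ± 93.2, was 73.5% of it. Without that library the means at 6 hpl, 1 dpl and 4 dpl were 10.7%, 11.8% and 179% of the intact mean.

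**Figure D2:**
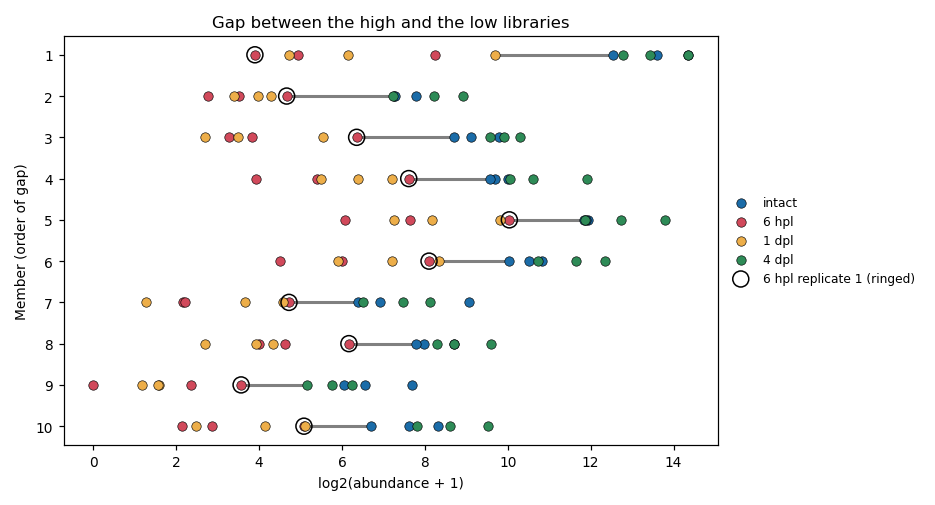
Each row is 1 member, ordered by gap, with a point for each library on a log2(abundance + 1) axis, colored by time point. The grey bar spans the gap, from 1.58 to 2.83 log2 units, and ringed points mark 6 hpl replicate 1, which is the highest early library in 7 of 10 members.

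The comparisons of each time point with intact iris asked how far the members fell and came back. All transcripts were fitted together with limma, with a two-sided test at a Benjamini-Hochberg adjusted p of 0.05 over 855254 transcripts, and a transcript past that threshold is described as called. The rule used these contrasts, so the calls add no evidence for the pattern. Called lower against intact were 10 of 10 members at 6 hpl, where 0.717% of all transcripts tested were called lower, and 10 of 10 at 1 dpl, where 1.63% were. The log2 differences ran from -7.80 to -3.23 with a median of -4.22 at 6 hpl, and from -6.64 to -3.30 with a median of -3.96 at 1 dpl. Without 6 hpl replicate 1, the differences at 6 hpl ran from -6.90 to -3.85 with a median of -5.15. The standard errors with all libraries lay between 0.47 and 0.98. The median over all transcripts tested was -0.01 in both comparisons. At 4 dpl, 10 of 10 members were called higher against 6 hpl, with a background of 2.11%, and 10 of 10 against 1 dpl, with a background of 0.509%. The differences were 3.75 to 7.82 (median 5.04) and 4.20 to 6.66 (median 4.46). The 1 dpl libraries enter the fall and the rise alike, so these comparisons are not independent of each other.

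Between 4 dpl and intact iris, the rule allowed a distance of 1.5 log2 units at most. Limma called 0 of the 10 members there, with a background of 6.25%, and 0 had an unadjusted p under 0.05. The log2 differences were positive in 8 members and negative in 2, with a median of 0.71 and a range from -1.03 to 1.12. The 95% intervals of the 10 differences spanned from -2.40 to 2.52 and 10 included 0, so that with 3 pools a group these data do not show that the level of any member had returned exactly to that of intact iris. The 3 and 3 values overlapped in 9 members and not in member 4. They did not overlap in 39.2% of the 48049 transcripts that passed the level. Those were not held to the limit of 1.5 log2 units, which favors overlap, so the shares are not like for like. The replicates at 4 dpl were more spread on the log2 scale than those of intact iris in members 2, 4, 5, 6, 8 and 10, most in member 5, where the SD was 0.97 log2 units at 4 dpl and 0.05 in intact iris.

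Between 1 dpl and 6 hpl, limma called 0 of the 10 members, with a background of 0.587%, and 1 member had an unadjusted p under 0.05. This was member 8, with a difference of -1.28 (SE 0.51). The differences were positive in 7 members and negative in members 3, 8 and 9, with a median of 0.37. With a library of either group left out, from 2 to 9 members had a positive difference, the 2 without 6 hpl replicate 2 and the 9 without 6 hpl replicate 1, so that no order of the 2 time points is read from it. The values overlapped in 10 of 10 members, and did not overlap in 17.3% of the 48049 transcripts. The rule itself limited how far the mean log2 values of 6 hpl and 1 dpl could lie apart. Of the transcripts that met the level and the gap, 0 were lost by this limit. With a background of 0.587%, 0 calls among 10 transcripts would not be unusual. The counts of calls and overlaps are therefore not read as a property of the members. Within groups, the SD of the log2 values had a median of 1.72 at 6 hpl and 1.26 at 1 dpl, against 0.52 in intact iris and 0.81 at 4 dpl. Without 6 hpl replicate 1 it was 0.78 at 6 hpl, and at 1 dpl it was 0.74 without replicate 1 and 0.79 without replicate 2. With a library of its own left out, it was 0.36 to 0.55 in intact iris and 0.57 to 0.95 at 4 dpl. The size of the early spread thus depended on these libraries. It stayed above that of intact iris, but not always above that of 4 dpl.

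The spread within groups was shared by most members. In 6 hpl replicate 1, 9 members lay above the mean of their group, with a median deviation of 1.71 log2 units. Among the 48049 transcripts that passed the level, 36.3% lay above it in this library. In 1 dpl replicate 2, 9 members lay above their group, with a median deviation of 1.02, where 36.1% of the 48049 did. In 4 dpl replicate 2, 7 members lay above, with a median of 0.76, where 41.6% of the 48049 did. In intact replicate 1, 8 members lay above, with a median of 0.47, where 48.2% of the 48049 did. Member 1 ran against the others, being lowest at 6 hpl in replicate 1 and highest at 1 dpl in replicate 3. Pearson's r of the deviations from the group means was taken over the 12 libraries. Without member 1 it was positive in 36 of 36 pairs of members, from 0.03 to 0.98 with a median of 0.78. Among these, the pairs with member 8 ran from 0.03 to 0.56. With member 1, r was negative in 8 of 9 pairs, with a median of -0.41. The 12 points of each r share their libraries and their scaling, and the values are given as a description.

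**Figure D3:**
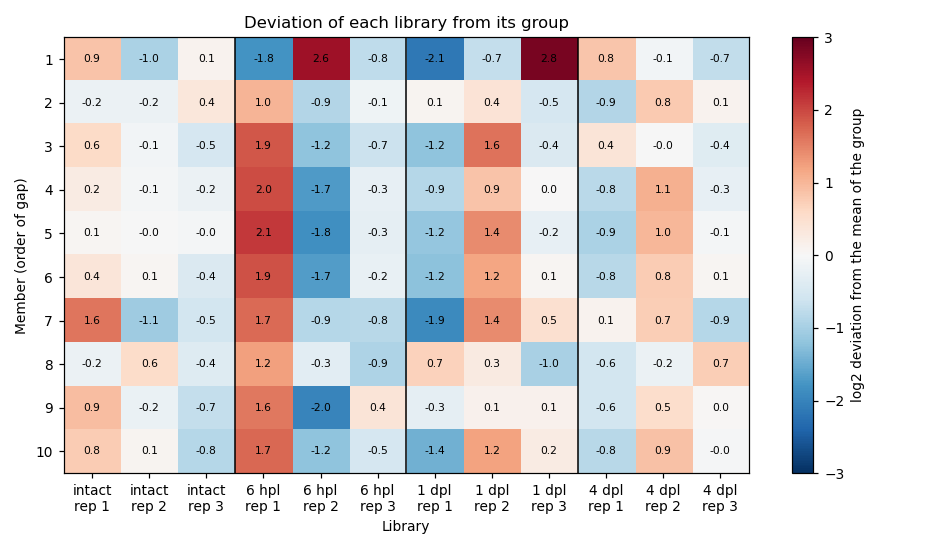
Deviation of each library from the mean log2(abundance + 1) of its group, for the 10 members (rows) and 12 libraries (columns), with positive deviations in red and negative ones in blue and the value in each cell. For members 2 to 10, replicate 1 of 6 hpl lies above its group, whereas member 1 has its largest positive deviations in 6 hpl replicate 2 and 1 dpl replicate 3.

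Which transcripts met the rule depended on 6 hpl replicate 1 more than on any other library. Without it, 54 transcripts met the rule, of which 7 were among the 10 members and 47 were not. Members 4, 5 and 6 no longer met it, because the means of 6 hpl and 1 dpl then lay over 1.5 log2 units apart. Leaving out any 1 of the other 11 libraries gave between 7 and 14 transcripts. Members 2, 3 and 7 were found in each of the 12 settings with a library left out. Leaving out a library cannot lower a gap, so a member could be lost only by the group distances or the minimum mean. Member 10 was lost in 1 of them and member 1 in 3.

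**Figure D4:**
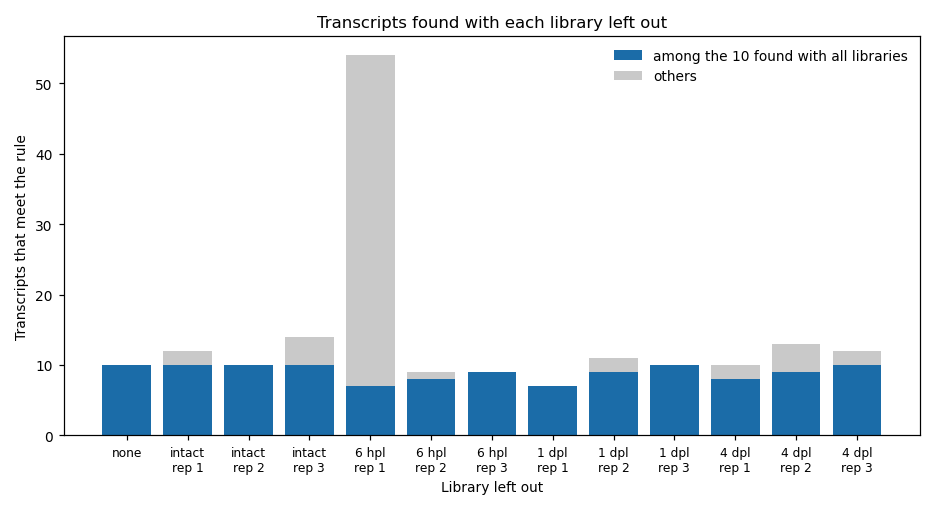
Number of transcripts that met the rule with all libraries (first bar) and with each library left out. Blue is the part among the 10 members and grey the other transcripts, which number 47 without 6 hpl replicate 1 and 4 at most in the other settings.

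The 47 transcripts that appeared without 6 hpl replicate 1 included far more abundant ones. Their mean in intact iris ran from 52.5 to 105654 with a median of 2779, and 19 of them had 10000 or more, a level that only member 1 reached among the 10. In 6 hpl replicate 1 they stood at a median of 47.2% of the intact mean, from 13.6% to 104%. In 6 hpl replicates 2 and 3 the medians were 2.63% and 6.00%, and the mean of 1 dpl stood at a median of 5.06%. At 4 dpl it was 125%. All 47 had a gap under 1.5 with this library and 1.5 or more without it. That it was the highest of the 6 early libraries in 47 of 47 was therefore fixed by the choice. Its raised level in these transcripts follows from the choice too. It lay below the 6 high libraries in 35 and within their range in 12. The transcript with the widest gap among them had 8000, 19391 and 20158 before lentectomy, then 5714, 3.73 and 4.93 by 6 hpl, 6.13, 5.59 and 1.80 by 1 dpl, and finally 33262, 51102 and 33830 by 4 dpl. Its early values were under 10 except in 6 hpl replicate 1, and its gap was 0.49 with that library and 10.1 without it. Since the 47 were found by leaving out a library after its values were seen, their pattern is a description.

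**Figure D5:**
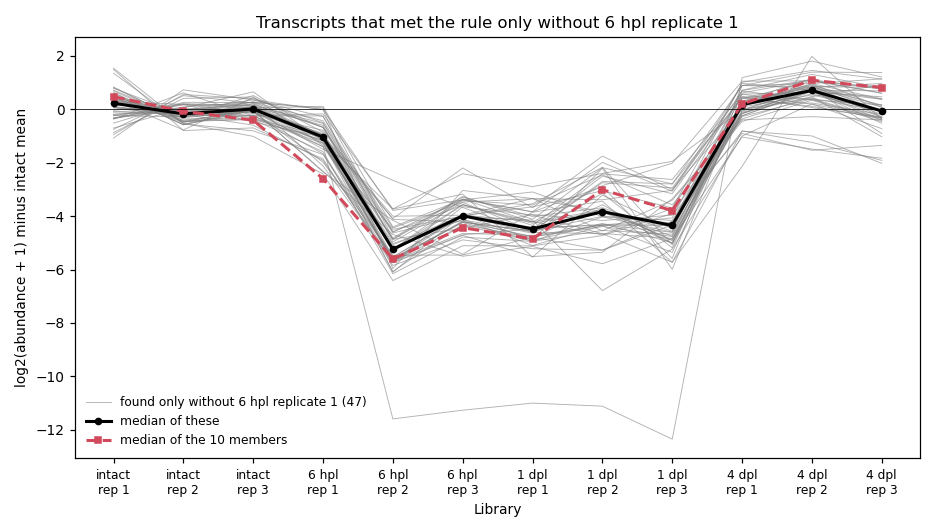
Log2(abundance + 1) of each library minus the mean of the intact libraries, for the 47 transcripts that met the rule only when 6 hpl replicate 1 was left out (grey lines, each joining the libraries of 1 transcript), their median (black) and the median of the 10 members (red). The black median is -1.04 in 6 hpl replicate 1 and between -5.24 and -3.83 in the 5 other early libraries.

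The place of the same library was also looked at in other transcripts that fell early. Among the 102 transcripts that were high in intact iris and low in the 3 later groups, 6 hpl replicate 1 was the highest 6 hpl library in 67 (65.7%). Among the 48049 transcripts that passed the level it was the highest in 21.0%. The 102 were chosen by their values in these same libraries, whereas the 48049 were chosen by a minimum mean alone. The sets are therefore not like for like, and the difference between the shares was not tested. The part of this library in the choice of members, beyond the counts given, was not tested. Labels name no batch, date or dissection that would set this library apart.

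The edge of the rule lay close to some members. The 2 members just inside the gap of 1.5 were member 9 at 1.60 and member 10 at 1.58, and the 2 transcripts just outside were at 1.41 and 1.28. The first of these had 45666, 10877 and 7776 before lentectomy, then 2924, 183 and 454 by 6 hpl, 452, 591 and 1048 by 1 dpl, and finally 13922, 26898 and 8363 by 4 dpl, and was thus more abundant than any member. Altogether 9 transcripts with a gap from 1 to 1.5 met the other criteria. When each library was scaled to the same total, 8 transcripts met the rule and 7 of them were members, with members 6, 7 and 10 lost.

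Transcripts with neighboring ID numbers were compared with the members. The table does not say what neighboring numbers share. Within 5 numbers on each side, 10 transcripts were found near 7 of the members. Pearson's r with the member over the 12 libraries was 0.7 or more in 4 of them and under 0.3 in 6, and 0 had a gap of 1.5 or more. How often other transcripts reach such an r with a member was not counted, so the 4 are not read as unusual. Next to member 8, the transcript with a number lower by 1 had a mean of 122 before lentectomy, 12.2 by 1 dpl and 164 by 4 dpl, with 43.5, 4.21 and 6.35 in the 6 hpl libraries, a gap of 1.03 and an r of 0.95 with member 8 over the 12 libraries. The transcript with a number lower by 3 averaged 18815 before lentectomy, then 2895 by 6 hpl, 780 by 1 dpl, and finally 25842 by 4 dpl. This transcript had a gap of 0.71 and was among those found without 6 hpl replicate 1. So was the transcript with a number lower by 1, whose gap was 1.81 without that library. In the transcript with a number lower by 3, that library raised the 6 hpl mean, with 7660 against 337 and 686 in replicates 2 and 3. The transcript with a number higher by 2 averaged 34.7, 19.1, 11.4 and 6.11 for these time points and did not come back at 4 dpl. By first digit of the ID, 3 members began with 1, 3 with 8, 2 with 4, 1 with 3 and 1 with 5, and 12.4%, 9.98%, 13.9%, 13.3% and 11.5% of the 48049 transcripts did.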

How the data were processed

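RNA of newt dorsal iris was sequenced in 12 libraries, 3 for each of 4 groups taken from the time point in the labels. The authors trimmed reads with Trim Galore, removed ribosomal reads with Bowtie2, assembled each condition with Trinity, merged the assemblies with DRAP and estimated abundance with Salmon, averaged over inferential replicates. Tool versions and a genome build are not given in the sources used here. Each deposited value is a normalised signal of 1 transcript. The values are described as TPM but each library sums to far more than 1000000, so they were tested on a log scale as a signal and not as TPM. They keep no read depth.

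Values were transformed as log2(value + 1), which understates changes of low transcripts. The rule and the figures used Python 3.11.15 with pandas 2.3.3. Transcripts at 1 or more in at least 3 libraries (855254) were fitted with limma 3.58.1 in R 4.3.3 (all 4 groups, variance trend). This replaced the Swish test of the authors, which needs inferential replicates. Both steps were run on simulated data. For the rule, the simulated libraries varied less than the median SD of the members in each group. How the rule behaves at the spread of the members was therefore not tested. Separate pools give the spread behind each p, and an exact permutation test of 3 against 3 cannot go below 0.1. At most 4 members are named by ID: the 2 with the largest fall from intact to 6 hpl and, of the rest, the 2 with the largest rise from 1 dpl to 4 dpl. A list of cell type markers could not be matched to IDs and gave no result. The members and lists were chosen with earlier results of these data known. Alternatives covered pseudocount, filters, thresholds, scaling, the fit, a replicate block and each library left out.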

Additional observations from a re-analysis of the deposited data

How the results depend on the processing

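The count of transcripts that met the rule, 10, was 19 with a gap of 1 or more, 3 with a gap of 2 or more, 4 with group means within 1 and 137 with no minimum mean, by construction of the thresholds. With a library left out it ran from 7 to 54, the 54 without 6 hpl replicate 1. The last of the thresholds and a rule with no limit on group means (14) were added after the data were seen. The other settings gave 8 to 15. Members called by limma stayed at 10 for 6 hpl against intact and 4 dpl against 6 hpl, and at 0 for 4 dpl against intact and 1 dpl against 6 hpl, in all 18 alternatives. They ranged from 9 to 10 for 1 dpl against intact and for 4 dpl against 1 dpl with a library left out, and were 8 for 4 dpl against 1 dpl with a pseudocount of 0.1, for which the cause was not tested. The gaps of the 4 named transcripts ranged from 2.83 to 4.29, 2.35 to 3.16, 1.60 to 2.81 and 1.61 to 3.16 with a library left out, in the order of members 1, 3, 9 and 8. Leaving out a library can only keep or raise a gap. The lower ends are therefore the gaps with all libraries, and these ranges do not show that the gaps are stable. Deviations of same-numbered libraries correlated from -0.19 to 0.05 over 18 pairs, with a median of 0.018. Those of libraries with unlike numbers correlated from -0.10 to 0.22 over 36 pairs, with a median of -0.005. The best correlated library of another group, out of 3, had the same number in 19 of 36 cases. Whether replicate numbers pair the libraries was not tested. With a replicate block the members called were 10, 10, 10, 10, 0 and 0, and all calls for 6 hpl against intact were 22396 instead of 23766. Member levels and spreads without each library, given in the report, were added after the data were seen. The reads behind each value are not known here, so low values have an unknown counting error.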

Other observations

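The requirement that group means lie within 1.5 log2 units removed 4 transcripts that met the level and the gap, each because 4 dpl lay too far above intact iris. Their gaps were 2.26, 2.02, 1.84 and 1.62. The first had group means of 50.2 before lentectomy, 3.85 by 6 hpl, 3.67 by 1 dpl and 426 by 4 dpl, and the third had 260, 19.6, 15.1 and 1982. In both, 4 dpl replicate 1 was far lower than the other 2 libraries of that time point, at 32.1 against 938 and 308 in the first and at 151 against 4482 and 1313 in the third. The second, with group means of 596, 51.7, 72.0 and 2090, and the third had the library order of members 4, 5, 6 and 10 in each early group and at 4 dpl. The minimum mean of 50 removed 127 further transcripts with the same gap and group distances. These values are descriptions, chosen after they were seen.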
